A study of Mus musculus with 2 samples.

Results

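The genes described here are the 10 core genes of DNA-dependent protein kinase and classical non-homologous end joining: Prkdc, Xrcc5, Xrcc6, Dclre1c, Poll, Polm, Xrcc4, Lig4, Nhej1 and Paxx. They were listed by name, and all 10 were among the 32285 features of both count matrices. Their UMI counts, each standing for 1 captured transcript, were summed over groups of cells set by thresholds on a few marker transcripts per cell, called gates below. The groups were tumours from livers of Crtc2-/- mice and tumours from livers of Crtc2+/+ mice, with 1 single-cell RNA library each. Mice of both genotypes had received the liver carcinogen DEN intraperitoneally at 25 mg/kg at 2 weeks of age and a NASH diet, which produces fatty and inflamed liver, from week 8 to week 26. The labels do not say how Crtc2 was deleted, in which cells, or how many animals or tumours entered a library. The study's title concerns DNA-PK, its phosphorylation of the transcriptional coactivator CRTC2, and end joining. Transcript counts measure neither phosphorylation nor repair.

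Non-homologous end joining rejoins both ends of a broken chromosome without a template and works through most of the cell cycle. Ku, a ring of the Ku70 (Xrcc6) and Ku80 (Xrcc5) proteins, slides onto the DNA ends and recruits the kinase DNA-PKcs (Prkdc). The 3 proteins together are DNA-PK. The nuclease Artemis (Dclre1c) and the polymerases lambda (Poll) and mu (Polm) trim and fill the ends, XRCC4 (Xrcc4), XLF (Nhej1) and PAXX (Paxx) hold them together, and DNA ligase IV (Lig4) seals them. Lymphocytes also use the pathway to join the breaks made during antigen receptor gene assembly.

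Promoter sequence is shown first because CRTC2 acts through CREB, which binds the cAMP response element, written CRE below. RefSeq promoter windows on GRCm38.p6, from 250 bases before to 50 bases after a gene's start, were available for 8 of the 10 genes in 9 windows. None of those genes held the CRE letters TGACGTCA on either strand, which 1.79% of 32851 mouse promoter windows held. The shorter CRE half-site TGACG, also searched on both strands and contained in the full CRE, was found in 2 genes, Xrcc5 and Xrcc6, both parts of Ku, against 20.8% of all windows. The GC box GGGCGG, which shares no overlap with the half-site in these windows, was in 7 of the 8 genes and in 35.7% of all windows. A match is a string of letters and not a measured binding site. The windows of Xrcc5 (chr1:72307171-72307470, plus strand), Xrcc6 (chr15:82016119-82016418, plus strand) and Dclre1c (chr2:3423881-3424180, plus strand) follow. Xrcc5 and Xrcc6 are the genes with the half-site, and Dclre1c is the gene whose genotype ratio ran in opposite directions between gates. Capitals mark TGACG or GGGCGG on either strand.
Xrcc5: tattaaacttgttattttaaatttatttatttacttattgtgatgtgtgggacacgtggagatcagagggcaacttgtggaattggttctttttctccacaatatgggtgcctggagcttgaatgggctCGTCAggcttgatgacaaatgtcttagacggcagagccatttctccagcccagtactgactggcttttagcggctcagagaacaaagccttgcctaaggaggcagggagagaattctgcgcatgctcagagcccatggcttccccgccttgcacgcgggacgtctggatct
Xrcc6: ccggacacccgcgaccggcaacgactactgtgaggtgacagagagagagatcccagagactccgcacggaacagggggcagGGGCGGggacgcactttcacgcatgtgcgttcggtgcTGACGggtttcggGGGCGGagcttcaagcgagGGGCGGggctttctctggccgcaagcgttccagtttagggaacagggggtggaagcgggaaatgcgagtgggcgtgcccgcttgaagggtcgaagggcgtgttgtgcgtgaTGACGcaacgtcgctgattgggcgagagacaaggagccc
Dclre1c: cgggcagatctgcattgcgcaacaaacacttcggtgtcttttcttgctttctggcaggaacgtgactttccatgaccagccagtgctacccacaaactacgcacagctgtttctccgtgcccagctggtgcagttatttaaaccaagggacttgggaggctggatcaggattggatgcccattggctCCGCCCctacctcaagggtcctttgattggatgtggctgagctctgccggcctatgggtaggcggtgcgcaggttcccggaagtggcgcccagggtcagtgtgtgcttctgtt
The half-site began at base -121 from the start in Xrcc5, on the minus strand, and at bases -132 and 12 in Xrcc6, on the plus strand. Dclre1c had 1 GC box, at base -63 on the minus strand.

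On GRCm38, Prkdc covers chr16:15637866-15842235 on the plus strand and lies 465 bases from the replication helicase gene Mcm4, which is read in the other direction. Xrcc5 covers chr1:72307421-72394952, Xrcc6 chr15:81987835-82040085, Dclre1c chr2:3424131-3464130 and Xrcc4 chr13:89774027-90089608. The Xrcc6 promoter window above lies inside this Xrcc6 span, away from its first base. Its half-site positions therefore count from the RefSeq start and not from the start of the span. Xrcc6, Dclre1c, Xrcc4 and Paxx overlap genes annotated on the opposite strand (Desi1 with Xrcc6, Suv39h2 with Dclre1c, Gm4117 and Tmem167 with Xrcc4, Clic3 with Paxx). The labels and file headers do not say whether strand was used in counting, so reads that fall inside the overlapping stretches cannot be assigned to 1 gene of a pair.

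The Crtc2-/- matrix held 9242 barcodes and 78040008 UMIs, and the Crtc2+/+ matrix held 9707 barcodes and 81487425 UMIs, with medians of 6688 and 7195 UMIs per barcode. Filters and the removal of called doublets left 8901 Crtc2-/- and 9349 Crtc2+/+ cells. The libraries shared 29 barcodes, 0.314% of the Crtc2-/- and 0.299% of the Crtc2+/+ barcodes. The T gate held 2608 Crtc2-/- and 1926 Crtc2+/+ cells, the B gate 1745 and 790 of these genotypes, the macrophage gate 1662 and 4940, the monocyte gate 969 and 824, the conventional dendritic cell (cDC) gate 760 and 356, and the endothelial gate 677 and 233. Hepatocyte-gate cells with at least 4 UMIs of keratins 8 and 18 in sum (keratin-high) numbered 160 Crtc2-/- and 182 Crtc2+/+, those with fewer (keratin-low) 79 Crtc2-/- and 88 Crtc2+/+, and cycling cells, a gate that crosses the others, 561 Crtc2-/- and 591 Crtc2+/+. Each list of 5 markers that the gates did not use had its highest sum in its own gate. Single markers did not all follow. Of the 5 cDC markers only 1 in the Crtc2-/- and 2 in the Crtc2+/+ library were highest in the cDC gate, and Zbtb46, Cd7 and H2-DMb2 were higher elsewhere in both libraries, so that gate is named from its rule. The T, B, endothelial and cycling lists had 5 of 5 markers highest in their own gate in both libraries, and the macrophage, monocyte and hepatocyte lists 3 to 5. The summed level of 5 T cell markers was 1707 and 1735 CPM (UMIs of the gene per 1000000 UMIs of the gate) in the Crtc2-/- and Crtc2+/+ T gates, and that of 5 hepatocyte markers 12982 and 6686 CPM in the keratin-high gates.

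The gates were not pure. Of the kept cells, 1238 (13.9%) Crtc2-/- and 904 (9.67%) Crtc2+/+ cells met more than 1 lineage gate. The B gate shared 474 of its 1745 Crtc2-/- cells and 235 of its 790 Crtc2+/+ cells with the macrophage gate, and the 5 macrophage markers, all detected there, summed to 1208 and 1190.1 CPM. The endothelial gate held 5 of 5 macrophage markers at a sum of 1514 and 724 CPM, and the keratin-low gate at 811 and 879.5 CPM. The genotype ratios of the 10 genes that crossed 1.5-fold, or whose interval came to include or exclude 1, when cells of more than 1 lineage gate were left out are given both ways below. With 1 library per genotype there is no replicate spread and no test. Intervals are exact 95% Poisson intervals for levels and exact conditional 95% intervals for ratios. They cover counting error only, and genotype cannot be told apart from animal, tumour or preparation.

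Crtc2 itself, the deleted gene, was counted at 5.43 (4.91 to 5.99) CPM in Crtc2-/- and 7.96 (7.34 to 8.61) CPM in Crtc2+/+ cells, a ratio of 0.683 (0.600 to 0.775). It was lower in Crtc2-/- cells of the T gate, at a ratio of 0.501 (0.366 to 0.683), and of the B gate, at 0.412 (0.284 to 0.600). Monocytes, at 0.543 (0.369 to 0.794), cDC, at 0.647 (0.432 to 0.974), and cycling cells, at 0.667 (0.463 to 0.954), were also lower in Crtc2-/-. The macrophage gate gave 0.881 (0.711 to 1.09) and the endothelial gate 0.983 (0.602 to 1.67). Crtc2 transcripts were still counted in the library labelled Crtc2-/-. The deleted part of the gene is not given, and tags from outside it check nothing.

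Among the gates as defined, DNA-PKcs transcripts were most abundant in the T gate and least abundant in the keratin-high gate. In the T gate Prkdc stood at 60.8 (56.96 to 64.7) CPM in Crtc2-/- and 69.2 (64.2 to 74.4) CPM in Crtc2+/+ cells, above every other gate, with an interval clear of the next. The B gate followed with 50.9 (47.2 to 54.8) CPM in Crtc2-/- and 49.99 (44.2 to 56.4) CPM in Crtc2+/+ cells. Among cells of 1 lineage gate only, Prkdc was at 63.5 CPM in B and 62.5 CPM in T cells of the Crtc2-/- library. In the Crtc2+/+ library these levels were 58.8 CPM in B and 71.5 CPM in T cells, so T was above B only there. Cycling cells, cDC, monocytes and macrophages lay together between 41.3 and 48.8 CPM in the Crtc2-/- and between 37.5 and 45.02 CPM in the Crtc2+/+ library, with overlapping intervals between neighbours in that order. Endothelial cells had 34.9 (31.2 to 39.01) CPM in Crtc2-/- and 27.2 (20.9 to 34.8) CPM in Crtc2+/+ cells. Keratin-high hepatocytes came last with 15.3 (11.02 to 20.7) CPM in Crtc2-/- and 10.05 (6.22 to 15.4) CPM in Crtc2+/+ cells, on 42 and 21 UMIs in these libraries. The order of the gates from T to cDC was the same in both libraries, once the keratin-low gate, with 20 Crtc2-/- and 9 Crtc2+/+ UMIs, is set aside.

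The Ku partners were distributed differently from each other although their proteins form 1 dimer. Xrcc5, encoding Ku80, was concentrated in T cells and in keratin-high hepatocytes. In the T gate it reached 29.3 (26.6 to 32.1) CPM in Crtc2-/- and 37.2 (33.6 to 41.1) CPM in Crtc2+/+ cells. In the keratin-high gate it reached 35.3 (28.6 to 43.1) CPM in Crtc2-/- and 32.5 (25.3 to 41.3) CPM in Crtc2+/+ cells, and the intervals of these gates overlapped in each library. The B gate had 15.2 (13.3 to 17.4) CPM in Crtc2-/- and 16.1 (12.9 to 19.9) CPM in Crtc2+/+ cells, and its cells of 1 lineage gate only had 25.5 and 30.9 CPM in the Crtc2-/- and Crtc2+/+ libraries. Myeloid levels were much lower. Macrophages had 4.29 (3.46 to 5.26) CPM in Crtc2-/- and 5.42 (4.79 to 6.10) CPM in Crtc2+/+ cells, and cDC had 1.89 (1.14 to 2.96) CPM in Crtc2-/- and 2.88 (1.57 to 4.83) CPM in Crtc2+/+ cells. Xrcc6, encoding Ku70, varied far less and was detected in every gate. Its levels ran from 9.82 CPM in endothelial to 21.2 CPM in cycling cells of the Crtc2-/- library, and from 9.51 CPM in endothelial cells to 22.97 CPM in keratin-high hepatocytes of the Crtc2+/+ library.

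**Figure D1:**
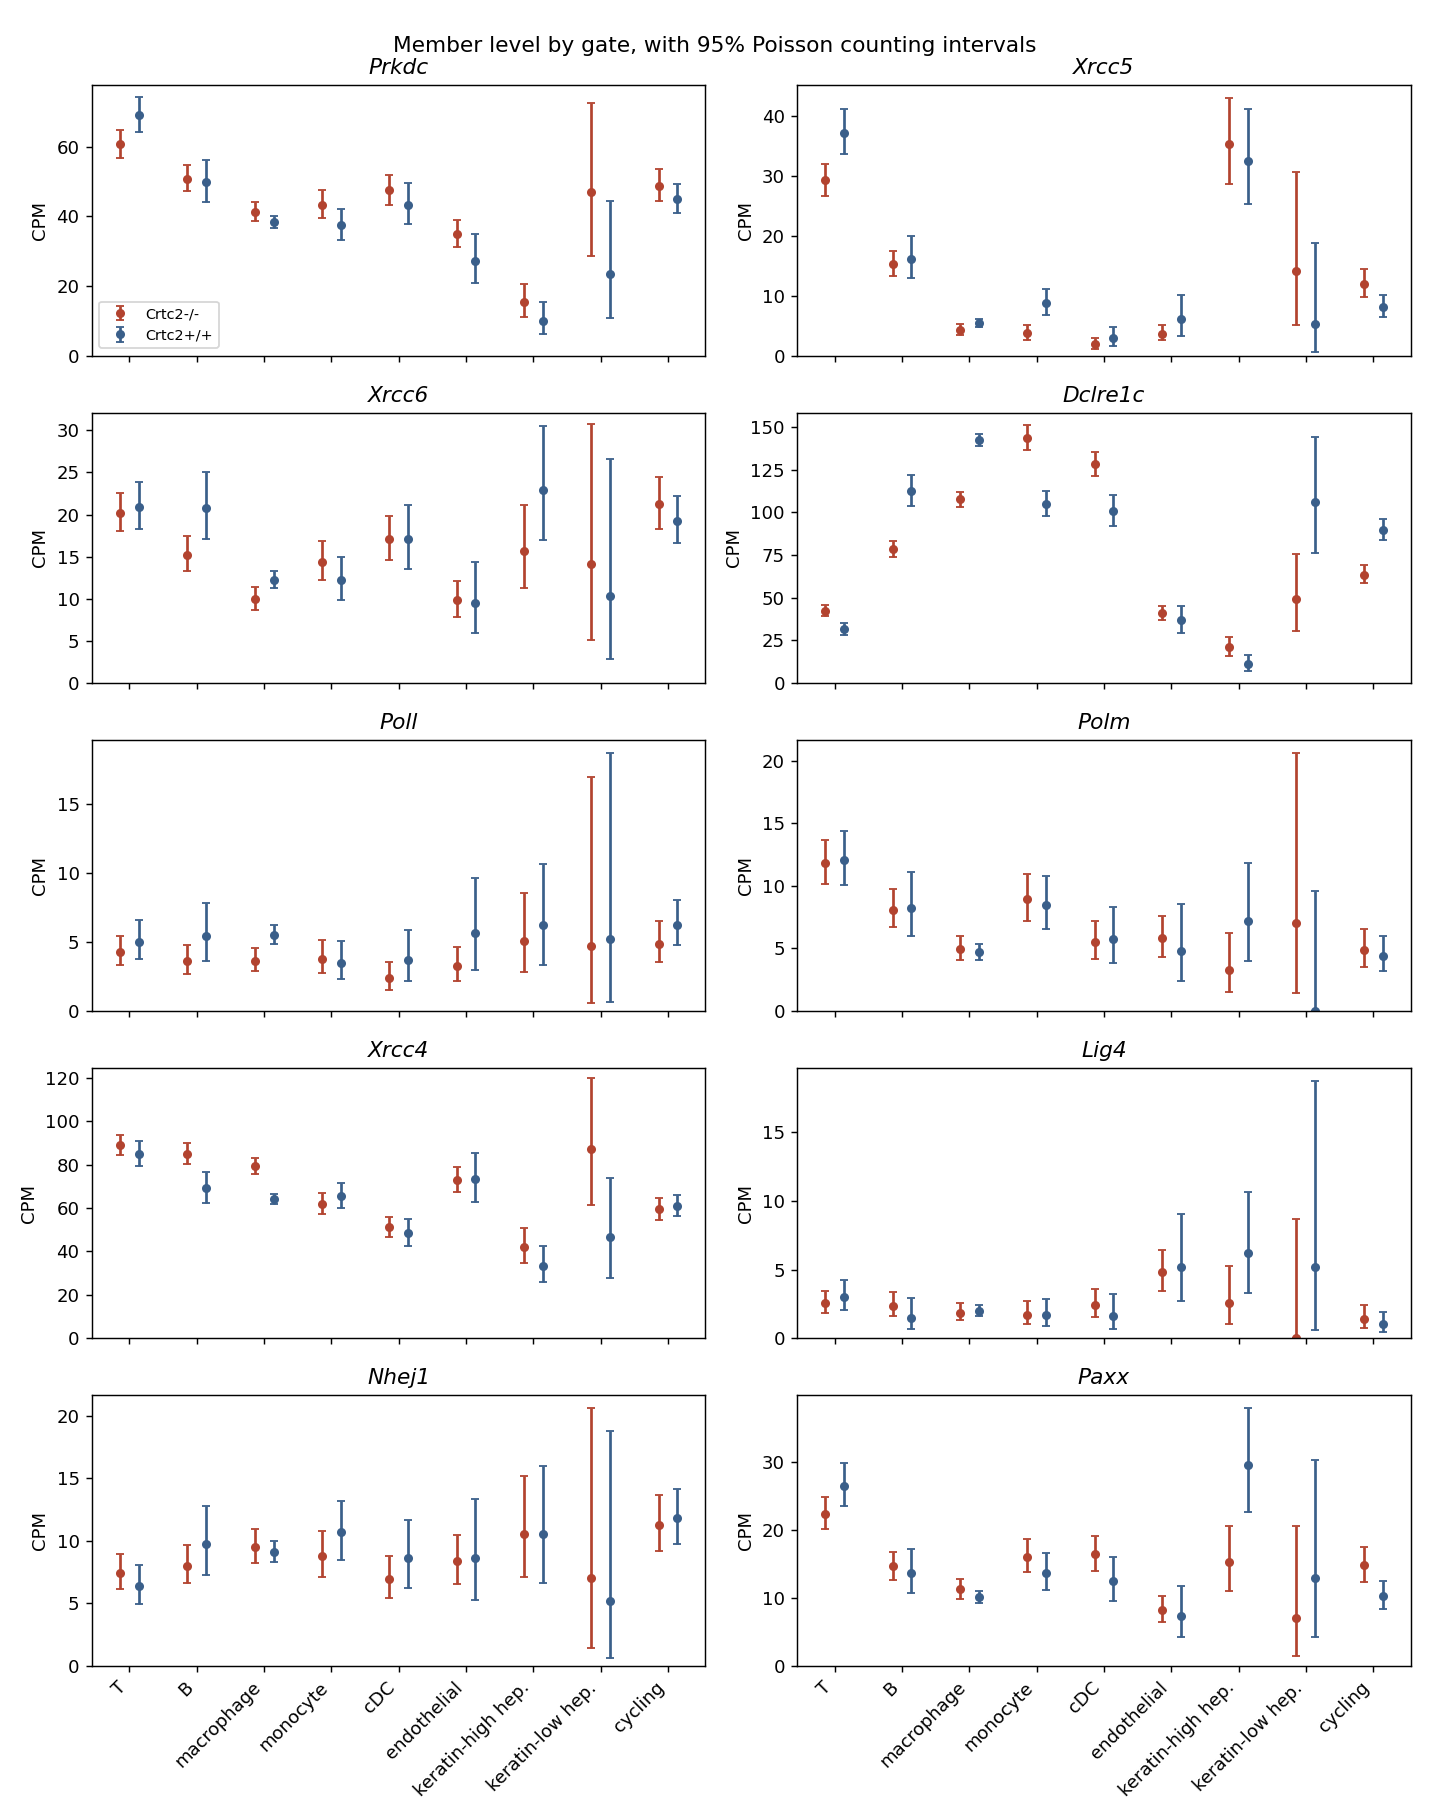
Level of each of the 10 genes in CPM by gate, with exact 95% Poisson intervals, the Crtc2-/- library left of the Crtc2+/+ library. Prkdc is highest in the T gate and lowest in the keratin-high gate in both libraries, Xrcc5 is low in the myeloid gates, and Dclre1c is low in the T, endothelial and keratin-high gates.

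Artemis transcripts ran opposite to Ku80 in T cells, macrophages and keratin-high hepatocytes. Dclre1c was high in the myeloid and B gates. Monocytes had 144 (137 to 151) CPM in Crtc2-/- and 105 (98.1 to 113) CPM in Crtc2+/+ cells. In cDC it was at 128 (121 to 136) CPM in Crtc2-/- and 101 (92.01 to 110.1) CPM in Crtc2+/+ cells, and in macrophages at 108 (103 to 112) CPM in Crtc2-/- and 142 (139 to 146) CPM in Crtc2+/+ cells. The order of these gates was not the same in both libraries, since monocytes came first among Crtc2-/- and macrophages first among Crtc2+/+ cells. The B gate held 78.6 (73.99 to 83.4) CPM in Crtc2-/- and 113 (104 to 122) CPM in Crtc2+/+ cells. T cells had 42.5 (39.3 to 45.8) CPM in Crtc2-/- and 31.7 (28.4 to 35.4) CPM in Crtc2+/+ cells, and endothelial cells had 40.8 (36.8 to 45.2) CPM in Crtc2-/- and 36.7 (29.4 to 45.4) CPM in Crtc2+/+ cells. Keratin-high hepatocytes had the lowest level in both libraries, with 21.1 (16.03 to 27.3) CPM in Crtc2-/- and 11.01 (6.98 to 16.5) CPM in Crtc2+/+ cells. Part of the level outside the myeloid gates moved with cells of mixed gates. Among cells of 1 lineage gate only, Dclre1c was 12.9 and 10.6 CPM in Crtc2-/- and Crtc2+/+ endothelial cells, 48.7 and 80.6 CPM in B cells and 38.5 and 27.4 CPM in T cells, and it was at 109 and 145 CPM in macrophages.

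The end-filling polymerases were sparse. Polm, encoding the template-tolerant polymerase mu, was highest in the T gate with 11.8 (10.2 to 13.6) CPM in Crtc2-/- and 12.1 (10.04 to 14.4) CPM in Crtc2+/+ cells. Macrophages had 4.94 (4.05 to 5.98) CPM in Crtc2-/- and 4.67 (4.09 to 5.31) CPM in Crtc2+/+ cells. The T gate interval overlapped that of the monocyte gate, the next in order, in both libraries. Poll, encoding polymerase lambda, lay between 2.39 and 5.10 CPM across the 9 gates of the Crtc2-/- library and between 3.47 and 6.26 CPM across those of the Crtc2+/+ library. Every neighbour in its order overlapped the next.

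Among the ligation genes, Xrcc4 was detected in every gate. Its scaffold protein binds and stabilises ligase IV. T cells had 88.9 (84.3 to 93.7) CPM in Crtc2-/- and 84.9 (79.4 to 90.7) CPM in Crtc2+/+ cells, and endothelial cells had 72.96 (67.5 to 78.8) CPM in Crtc2-/- and 73.5 (62.9 to 85.4) CPM in Crtc2+/+ cells. Keratin-high hepatocytes had the least Xrcc4 of any gate in both libraries, with 42.2 (34.9 to 50.7) CPM in Crtc2-/- and 33.5 (26.1 to 42.3) CPM in Crtc2+/+ cells. Lig4, the ligase gene, had few UMIs in any gate. In endothelial cells it had 4.80 (3.47 to 6.46) CPM in Crtc2-/- and 5.19 (2.68 to 9.06) CPM in Crtc2+/+ cells, on 43 and 12 UMIs in these libraries. Keratin-high hepatocytes had 2.55 (1.02 to 5.25) CPM in Crtc2-/- and 6.22 (3.31 to 10.6) CPM in Crtc2+/+ cells, on 7 and 13 UMIs, the highest level of the Crtc2+/+ library, with an interval that overlapped the endothelial one. The T, B, myeloid and cycling gates had between 1.44 and 2.55 CPM in the Crtc2-/- and between 1.03 and 2.99 CPM in the Crtc2+/+ library. No Lig4 UMI was seen among Crtc2-/- keratin-low cells, where a count of 0 allows up to 7.05 CPM by the limit of 3 counts and the exact 95% Poisson interval ends at 8.67 CPM, against 2 UMIs in Crtc2+/+ keratin-low cells. Nhej1, encoding XLF, varied little. Its highest level was in the cycling gate, with 11.3 (9.20 to 13.7) CPM in Crtc2-/- and 11.8 (9.74 to 14.2) CPM in Crtc2+/+ cells. Paxx, encoding the Ku-binding accessory factor, was high in the T gate, with 22.4 (20.2 to 24.9) CPM in Crtc2-/- and 26.5 (23.5 to 29.9) CPM in Crtc2+/+ cells. Keratin-high hepatocytes had 15.3 (11.02 to 20.7) CPM in Crtc2-/- and 29.7 (22.7 to 38.03) CPM in Crtc2+/+ cells, the highest level of the Crtc2+/+ library, with an interval that overlapped that of T cells. Endothelial cells had less, with 8.26 (6.48 to 10.4) CPM in Crtc2-/- and 7.35 (4.28 to 11.8) CPM in Crtc2+/+ cells.

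Setting each gate against all other kept cells of its own library puts these levels on a common footing. A gene was counted as past the fold at 1.5-fold or more in either direction with at least 50 UMIs over both sides. In T cells 5 of the 10 genes in the Crtc2-/- and 6 of the 10 in the Crtc2+/+ library were past the fold, where 52.1% and 55.2% of all eligible features were, so the shares lay near the background. Xrcc5 led, with a ratio of 4.18 (3.65 to 4.78) in Crtc2-/- and 5.29 (4.61 to 6.07) in Crtc2+/+ cells. Polm followed with 1.86 (1.55 to 2.23) in Crtc2-/- and 2.20 (1.78 to 2.70) in Crtc2+/+ cells, and Paxx with 1.66 (1.46 to 1.88) in Crtc2-/- and 2.21 (1.92 to 2.54) in Crtc2+/+ cells. Ku80, polymerase mu and PAXX transcripts were thus all more abundant in T cells than in the other cells of either library. For Xrcc6 the ratio was 1.59 (1.39 to 1.82) in Crtc2-/- and 1.53 (1.31 to 1.78) in Crtc2+/+ cells, and for Prkdc 1.45 (1.34 to 1.56) in Crtc2-/- and 1.83 (1.69 to 1.99) in Crtc2+/+ cells. Dclre1c went the other way, at 0.439 (0.405 to 0.476) in Crtc2-/- and 0.255 (0.227 to 0.284) in Crtc2+/+ cells.

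In macrophages 4 genes in the Crtc2-/- and 5 in the Crtc2+/+ library were past the fold, against 46.5% and 48.2% of features. The ratio of Xrcc5 was 0.290 (0.231 to 0.360) in Crtc2-/- and 0.253 (0.218 to 0.293) in Crtc2+/+ cells. Paxx stood at 0.658 (0.568 to 0.759) in Crtc2-/- and 0.484 (0.428 to 0.546) in Crtc2+/+ cells and Polm at 0.578 (0.463 to 0.716) in Crtc2-/- and 0.495 (0.413 to 0.593) in Crtc2+/+ cells. These 3 genes were high in T cells and low in macrophages, and Dclre1c was again the other way round, at 1.42 (1.35 to 1.496) in Crtc2-/- and 2.48 (2.35 to 2.63) in Crtc2+/+ cells. In endothelial cells 5 and 6 genes were past the fold in the Crtc2-/- and Crtc2+/+ libraries, against 52.3% and 57.6% of features. Among these, Lig4 was higher there and the others were lower, with Lig4 at 2.32 (1.60 to 3.29) in Crtc2-/- and 2.54 (1.29 to 4.57) in Crtc2+/+ cells. In keratin-high hepatocytes 5 and 7 were past the fold in these libraries, against 67.8% and 67% of features. Prkdc stood at 0.324 (0.233 to 0.439) in Crtc2-/- and 0.235 (0.145 to 0.359) in Crtc2+/+ cells, and Xrcc5 at 3.26 (2.61 to 4.03) in Crtc2-/- and 3.10 (2.38 to 3.98) in Crtc2+/+ cells. Keratin-high hepatocytes thus had little of the kinase transcript and much of the Ku80 transcript relative to other cells, in both libraries.

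The B gate had 0 of the 10 genes past the fold in the Crtc2-/- library and 1, Xrcc5, in the Crtc2+/+ library, with 32.1% and 29.4% of features past it. In the Crtc2-/- and Crtc2+/+ libraries, monocytes had 2 and 1 (34.4% and 29.6% of features), cDC 4 and 1 (42.9% and 41.6%), keratin-low hepatocytes 3 and 5 (52.1% and 63.3%) and cycling cells 3 and 2 (30.7% and 31.3%).

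**Figure D2:**
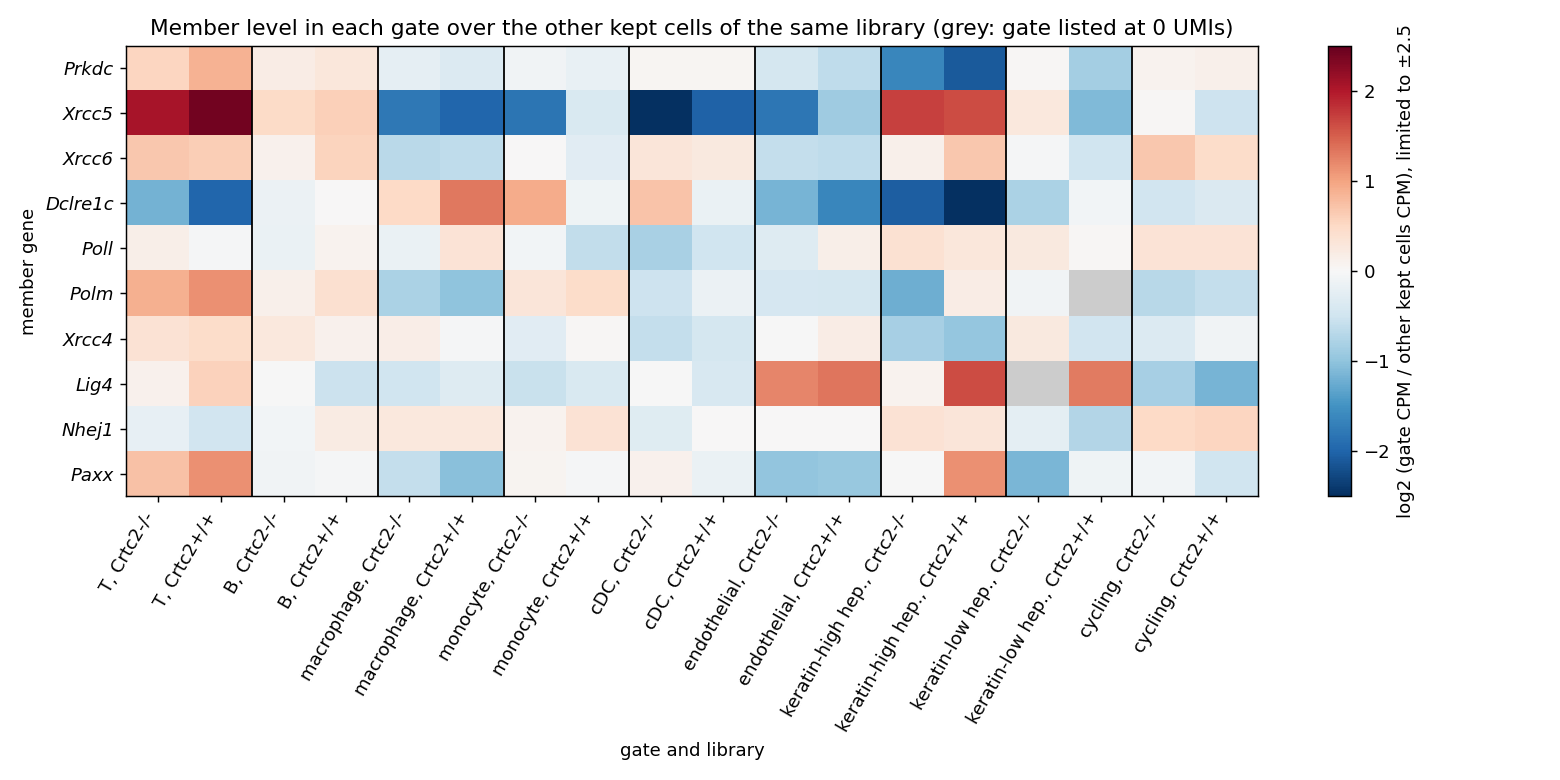
Log2 ratio of each gene's CPM in a gate over all other kept cells of the same library, drawn as colour, for the Crtc2-/- and Crtc2+/+ libraries. Xrcc5 is above 0 in the T and keratin-high gates and below 0 in the macrophage, cDC and endothelial gates, and Dclre1c runs the opposite way in the T, macrophage and keratin-high gates.

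Between genotypes, the end joining genes were mostly close to each other within a gate. Of the 90 combinations of gene and gate, 71 had at least 50 UMIs over both libraries. Of those 71, 8 were past 1.5-fold, 40 were within 1.2-fold and 50 had an interval that included 1. The counts within 1.2-fold and with an interval including 1 were not made for all features. They therefore do not set these genes apart from others. Ratios of Crtc2-/- over Crtc2+/+ ran from 0.423 to 1.92. Over all kept cells, without gates, 0 of the 10 genes were past the fold, beside 31% of all eligible features. The members' median log2 ratio was 0.11 there, beside 0.10 for all features.

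Gate by gate, T cells had 0 of 10 eligible genes past the fold (15.6% of features), cDC 0 of 7 (13.9%), endothelial cells 0 of 8 (24.9%) and cycling cells 0 of 9 (27.6%). The B gate had 1 of 9 (18% of features), macrophages 1 of 10 (29.6%) and monocytes 1 of 9 (16.5%). Keratin-high hepatocytes had 3 of 7 (35.7%) and keratin-low hepatocytes both of their 2 eligible genes (43%). The members' median log2 ratio lay between -0.12 in T cells and 0.13 in monocytes over the 9 gates. The corresponding medians of all features were 0.04 in T cells and 0.03 in monocytes.

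Prkdc was slightly lower in Crtc2-/- T cells, with 953 Crtc2-/- and 717 Crtc2+/+ UMIs and a ratio of 0.878 (0.796 to 0.969). In the B gate its ratio was 1.02 (0.884 to 1.18), in macrophages 1.08 (0.994 to 1.17) and in cycling cells 1.08 (0.947 to 1.24). These 3 intervals included 1, but among macrophages of 1 lineage gate only the ratio was 1.14 (1.02 to 1.26), which excluded 1. In monocytes it was 1.16 (0.998 to 1.35), and its log2 ratio there, 0.21, was -0.079 with cells of other lineage gates left out. Endothelial cells gave 1.28 (0.975 to 1.71) and keratin-high hepatocytes 1.52 (0.881 to 2.70), on 42 and 21 UMIs in the Crtc2-/- and Crtc2+/+ libraries. Thinning each cell to 2000 UMIs moved the endothelial log2 ratio to 1.17, against 0.36, on 46 Crtc2-/- and 7 Crtc2+/+ UMIs. At full depth, the genotype ratio of the kinase itself was within 1.3-fold in every gate with more than 100 UMIs of it. The endothelial interval still reached 1.71, and the keratin-high ratio, on fewer UMIs, was past 1.5-fold.

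Xrcc5 differed in T cells, at a ratio of 0.786 (0.685 to 0.902), with lower levels in the Crtc2-/- library, and this stood at 0.848 (0.729 to 0.988) among cells of the T gate alone. In macrophages the ratio was 0.792 (0.618 to 1.01), and with cells of other lineage gates left out it was past the fold, at 0.586 (0.397 to 0.843) on 34 and 234 UMIs in the Crtc2-/- and Crtc2+/+ libraries. Monocytes gave the lowest ratio of any gene, 0.423 (0.278 to 0.637), on 39 and 68 UMIs in the Crtc2-/- and Crtc2+/+ libraries. T cell transcripts were also counted in the gate, and their part in that value was not tested. All 5 T cell markers were detected there, at a sum of 172 and 325 CPM, and 143 of 969 Crtc2-/- and 219 of 824 Crtc2+/+ monocyte-gate cells also met the T gate. Among cells of the monocyte gate alone, 3 and 1 Xrcc5 UMIs were left, and the direction turned, at a ratio of 1.87 (0.1504 to 98.4). Cycling cells had a higher Xrcc5 level in the Crtc2-/- library, at 1.47 (1.09 to 1.996). There, 188 of 561 Crtc2-/- and 85 of 591 Crtc2+/+ cells were of the T gate, and within lineages the ratio was 1.28 (0.785 to 2.18) in cycling T cells and 0.735 (0.389 to 1.32) in cycling macrophages. Neutrophil markers, 4 of 4 in the Crtc2-/- and 3 of 4 in the Crtc2+/+ library with Cxcr2 at 0, summed to 2195 and 1.95 CPM in cycling cells. Their part in the result was not tested.

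Xrcc6 was lower in Crtc2-/- cells of the B gate, at 0.733 (0.580 to 0.931), and of the macrophage gate, at 0.818 (0.697 to 0.957). In B cells of 1 lineage gate only the ratio was 0.529 (0.386 to 0.728), a larger difference. Plasma cell markers, 4 of 4 detected, summed to 2679.6 and 166 CPM in the Crtc2-/- and Crtc2+/+ B gates, and their part was not tested. In keratin-high hepatocytes the ratio was 0.682 (0.441 to 1.05), and 0.641 (0.389 to 1.05) with cells of other lineage gates left out, past the fold but with an interval that included 1. It was 0.965 (0.810 to 1.15) in T cells, 0.999 (0.764 to 1.32) in cDC and 1.18 (0.908 to 1.54) in monocytes, and these 3 intervals also included 1.

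Dclre1c ran in opposite directions in different gates. It was higher in Crtc2-/- T cells, at 1.34 (1.17 to 1.53), in monocytes, at 1.37 (1.26 to 1.49), and in cDC, at 1.27 (1.15 to 1.42). It was lower in Crtc2-/- B-gate cells, at 0.697 (0.631 to 0.772), in macrophages, at 0.756 (0.721 to 0.793), and in cycling cells, at 0.708 (0.636 to 0.787). In keratin-high hepatocytes it was 1.92 (1.17 to 3.26) on 58 Crtc2-/- and 23 Crtc2+/+ UMIs. In keratin-low hepatocytes it was 0.464 (0.261 to 0.804) on 21 Crtc2-/- and 41 Crtc2+/+ UMIs, and the direction turned with gate thresholds doubled. Each of these intervals lay on 1 side of 1, and the difference between gates was not tested. Cells of 1 lineage gate only had a ratio of 1.40 (1.19 to 1.65) in T cells, 1.26 (1.09 to 1.45) in monocytes, 1.12 (0.959 to 1.31) in cDC, 0.604 (0.495 to 0.738) in B cells and 0.755 (0.709 to 0.805) in macrophages, so the cDC interval then included 1 and the B value was past the fold. In keratin-high hepatocytes the value was then 1.35 (0.610 to 3.14) on 19 and 11 UMIs in the Crtc2-/- and Crtc2+/+ libraries, too few to be counted against the fold and with an interval that included 1. In keratin-low hepatocytes 5 and 0 UMIs were left. Cycling cells of the T gate stood at 1.79 (1.18 to 2.80), those of the B gate at 0.644 (0.497 to 0.838) and those of the macrophage gate at 0.831 (0.726 to 0.949). Other cell types moved with genotype in the myeloid gates. Plasmacytoid dendritic cell markers, 4 of 4 detected, summed to 704 and 269 CPM in Crtc2-/- and Crtc2+/+ monocytes and 888 and 590.2 CPM in cDC. Plasma cell markers, 4 of 4 detected, summed to 564 and 17.6 CPM in monocytes and 401 and 34.5 CPM in cDC. The part of both in the Dclre1c ratios was not tested. With called doublets kept, the T-gate log2 ratio was 0.12, against 0.42 without them.

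The macrophage value was not the same in both kinds of macrophage. Kupffer cells, the resident liver macrophages, carry Cd5l, Vsig4 and Clec4f, and cells with at least 2 UMIs of these made up 591 (35.6%) of the Crtc2-/- and 50 (1.01%) of the Crtc2+/+ macrophage gate. In those cells Dclre1c had a ratio of 1.09 (0.873 to 1.39). In macrophages with 0 such UMIs it was 0.740 (0.693 to 0.790), on 1041 and 6883 UMIs in the Crtc2-/- and Crtc2+/+ libraries, at 106 and 143 CPM. Cells with 0 such UMIs were 874 (52.6%) of the Crtc2-/- and 4804 (97.2%) of the Crtc2+/+ gate. Prkdc, at 1.08 (0.994 to 1.17) in the whole gate, was 1.42 (0.906 to 2.36) in cells with and 1.198 (1.08 to 1.33) in cells without Kupffer transcripts, and the first of these intervals included 1. The split was chosen after the data were seen, and the difference between its sides was not tested.

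**Figure D3:**
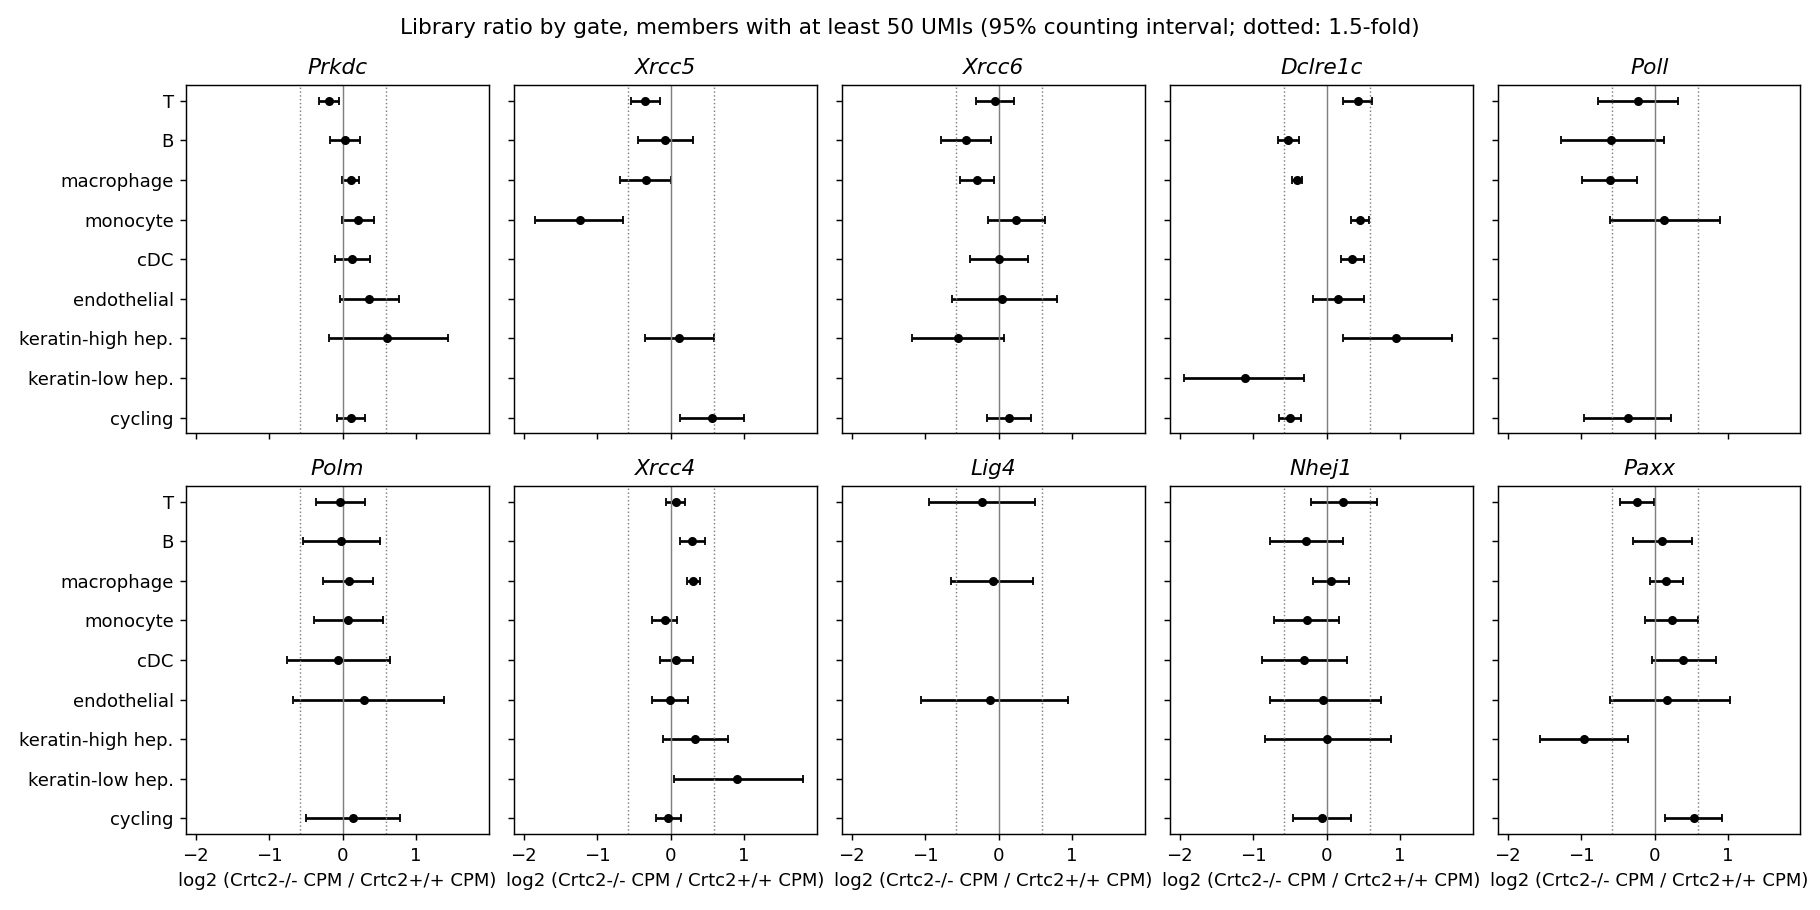
Ratio of Crtc2-/- over Crtc2+/+ for each gene and gate on a log2 axis, with exact 95% conditional intervals and lines at 1.5-fold in either direction. Most points lie within the lines, and Dclre1c lies above 0 in the T, monocyte, cDC and keratin-high gates and below 0 in the B, macrophage, keratin-low and cycling gates.

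Of the polymerases and ligation genes, Poll in the B and macrophage gates, Paxx in keratin-high and Xrcc4 in keratin-low hepatocytes were past the fold. The shares of all features past it are given gate by gate above. Poll was past the fold in B-gate cells, at 0.665 (0.413 to 1.09) with an interval that included 1, and in macrophages, at 0.659 (0.506 to 0.850). Both were lower in the Crtc2-/- library. With cells of other lineage gates left out, the macrophage ratio was 0.756 (0.535 to 1.05), no longer past the fold, and in B cells 0.740 (0.349 to 1.67) on 24 and 11 UMIs. In macrophages without Kupffer transcripts the ratio was 1.02 (0.7500 to 1.36). Polm was 0.978 (0.775 to 1.24) in T cells and 1.06 (0.832 to 1.34) in macrophages. Xrcc4 was higher in Crtc2-/- cells of the B gate, at 1.23 (1.09 to 1.38), and of the macrophage gate, at 1.24 (1.17 to 1.31), and was 1.05 (0.961 to 1.14) in T cells and 1.13 (1.02 to 1.24) in those of 1 lineage gate only. Lig4 had 50 UMIs over both libraries only in the T, macrophage and endothelial gates, where its ratios were 0.853 (0.520 to 1.41), 0.949 (0.640 to 1.38) and 0.925 (0.479 to 1.93). Nhej1 intervals included 1 in each of its eligible gates, among them 1.17 (0.859 to 1.61) in T cells and 1.05 (0.883 to 1.24) in macrophages. Paxx was 0.846 (0.720 to 0.994) in T cells, 1.44 (1.11 to 1.89) in cycling cells and 0.515 (0.340 to 0.775) in keratin-high hepatocytes. In cells of 1 lineage gate only it was 0.850 (0.713 to 1.02) in T cells, where the interval then included 1, and 1.26 (1.03 to 1.53) in macrophages, against 1.12 (0.953 to 1.303) in the whole macrophage gate.

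In keratin-high hepatocytes, Prkdc and Dclre1c were past the fold upward and Paxx downward in the Crtc2-/- library. In keratin-low hepatocytes Xrcc4 was higher, at 1.86 (1.03 to 3.48) on 37 Crtc2-/- and 18 Crtc2+/+ UMIs, and this too turned with gate thresholds doubled. With cells of other lineage gates left out, 5 and 1 Xrcc4 UMIs were left there in the Crtc2-/- and Crtc2+/+ libraries, and Prkdc in keratin-high cells was at 1.82 (0.898 to 3.94) on 28 and 12 UMIs. These hepatocyte gates differed in quality between the libraries. The keratin-high cells had median depths of 15860.5 UMIs in the Crtc2-/- and 10245.5 UMIs in the Crtc2+/+ library and median mitochondrial shares of 1.76% and 4.48%. In the keratin-low gates those shares were 1.78% and 6.39%. With the mitochondrial limit at 10%, the keratin-high log2 ratios were 0.65 for Prkdc, 0.92 for Dclre1c and -0.96 for Paxx. At the wider limit they were 0.61, 0.94 and -0.96. With gate thresholds doubled, Dclre1c was at 0.026. Thinned to 2000 UMIs, each of these genes had 8 or fewer UMIs per library, too few to read.

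Cycling cells were compared with non-cycling cells of the same gate in each library. In macrophages, median depths of cycling and non-cycling cells were 16736.5 and 10801 UMIs in Crtc2-/- and 17210 and 8563 UMIs in Crtc2+/+ cells. In T cells they were 10605.5 and 4576.5 UMIs in Crtc2-/- and 8829 and 4542 UMIs in Crtc2+/+ cells. Mcm4, the neighbour of Prkdc and a replication gene, had a ratio of 3.81 (3.15 to 4.59) in Crtc2-/- and 3.93 (3.49 to 4.43) in Crtc2+/+ cells in the macrophage gate. In macrophages 3 of 9 end joining genes in the Crtc2-/- and 3 of 10 in the Crtc2+/+ library were past the fold, against 20.3% and 23.5% of features. Xrcc6 was higher in cycling macrophages, at 2.17 (1.59 to 2.93) in Crtc2-/- and 1.69 (1.39 to 2.05) in Crtc2+/+ cells. So was Nhej1, at 1.75 (1.25 to 2.41) in Crtc2-/- and 1.31 (1.02 to 1.66) in Crtc2+/+ cells. Prkdc was 1.24 (1.05 to 1.47) in Crtc2-/- and 1.13 (1.003 to 1.28) in Crtc2+/+ cells. In the macrophage gate, Ku70 and XLF transcripts were thus more abundant in cycling cells in both libraries. The kinase ratios were below 1.3, with intervals up to 1.47 in Crtc2-/- and 1.28 in Crtc2+/+ cells. Thinning each cell to 2000 UMIs turned the Nhej1 value of the Crtc2-/- library to -1.69 on the log2 scale, on 1 UMI in cycling cells. Dclre1c was lower in cycling macrophages, at 0.782 (0.691 to 0.882) in Crtc2-/- and 0.704 (0.654 to 0.758) in Crtc2+/+ cells. Polm was 0.844 (0.454 to 1.47) in Crtc2-/- and 0.525 (0.314 to 0.831) in Crtc2+/+ cells.

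In T cells, 2 of 9 genes in the Crtc2-/- and 3 of 9 in the Crtc2+/+ library were past the fold between cycling and non-cycling cells, against 29.5% and 31.2% of features. Nhej1 was again higher, at 1.65 (1.03 to 2.57) in Crtc2-/- and 1.93 (0.913 to 3.74) in Crtc2+/+ cells, the Crtc2+/+ interval including 1. Prkdc was 0.997 (0.830 to 1.19) in Crtc2-/- and 0.883 (0.666 to 1.15) in Crtc2+/+ cells. Its neighbour Mcm4 was 2.76 (2.32 to 3.28) in Crtc2-/- and 3.80 (2.99 to 4.80) in Crtc2+/+ cells, so the kinase transcript did not follow it. Xrcc6 was 1.37 (1.02 to 1.81) in Crtc2-/- and 0.982 (0.587 to 1.56) in Crtc2+/+ cells, with an interval that included 1 in the Crtc2+/+ library. Xrcc5 gave 0.992 (0.758 to 1.28) in Crtc2-/- and 0.585 (0.362 to 0.899) in Crtc2+/+ cells. Polm gave 0.486 (0.266 to 0.825) in Crtc2-/- and 1.03 (0.515 to 1.87) in Crtc2+/+ cells. For Xrcc5 and Polm the intervals of both libraries overlapped, on 22 Xrcc5 UMIs in Crtc2+/+ and 15 Polm UMIs in Crtc2-/- cycling T cells.

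In the B gate, 5 of 9 genes in the Crtc2-/- and 3 of 7 in the Crtc2+/+ library were past the fold between cycling and non-cycling cells, against 32.8% and 37.2% of features. Xrcc5 was lower in cycling B-gate cells, at 0.564 (0.332 to 0.905) in Crtc2-/- and 0.268 (0.0849 to 0.653) in Crtc2+/+ cells, on 19 Crtc2-/- and 5 Crtc2+/+ cycling UMIs. Cycling B-gate cells had median depths of 18490 UMIs in Crtc2-/- and 22085 UMIs in Crtc2+/+ cells, against 4796 and 3966 UMIs in non-cycling cells. The B gate also shared cells with the macrophage gate, where Xrcc5 was low. The part of depth and of those cells in the B-gate ratios was not tested. Xrcc6 was 1.72 (1.23 to 2.39) in Crtc2-/- and 1.01 (0.599 to 1.65) in Crtc2+/+ cells and Nhej1 1.33 (0.785 to 2.16) in Crtc2-/- and 2.30 (1.22 to 4.19) in Crtc2+/+ cells, each with 1 interval that included 1. Prkdc was 0.953 (0.764 to 1.18) in Crtc2-/- and 0.953 (0.682 to 1.31) in Crtc2+/+ cells. The difference between libraries was not tested.

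**Figure D4:**
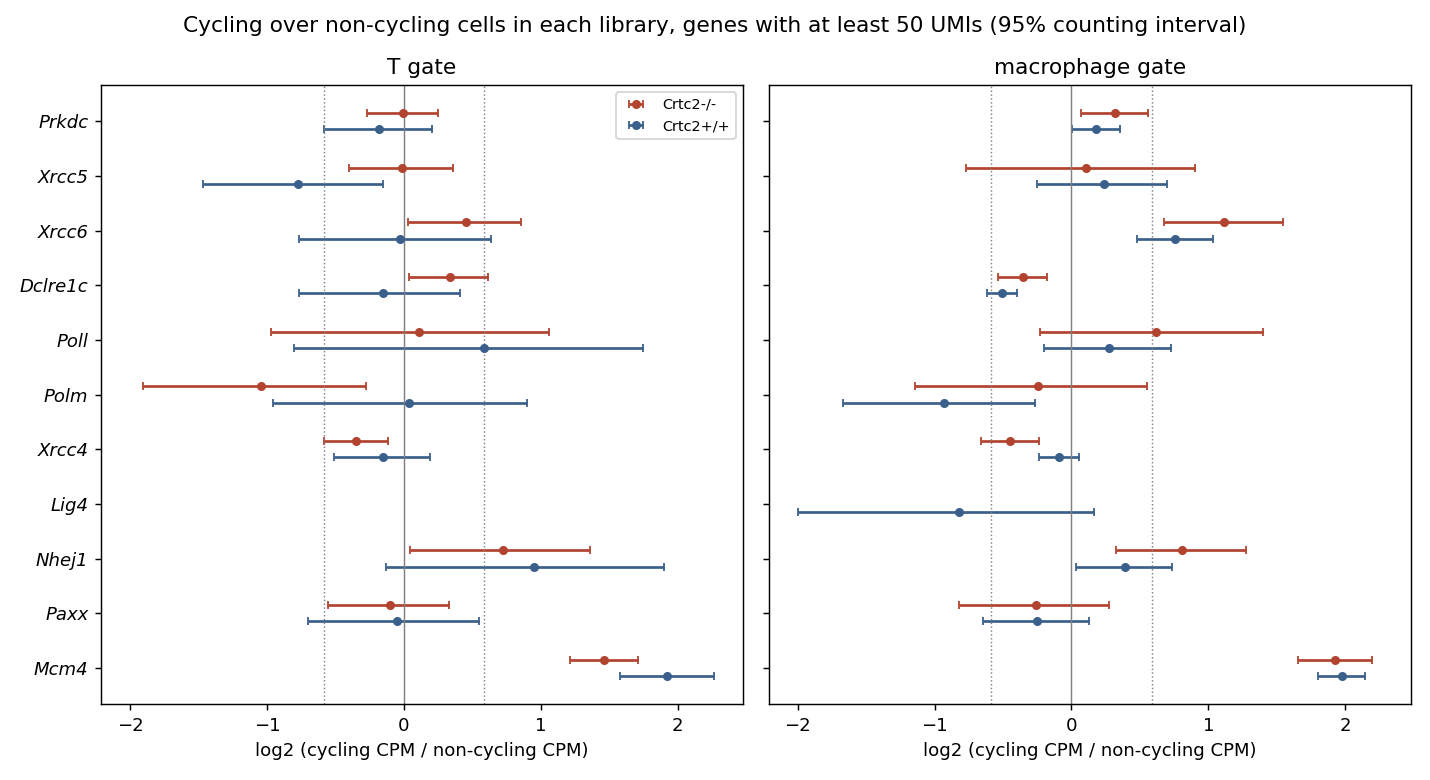
Log2 ratio of cycling over non-cycling cells within the T and macrophage gates for the 10 genes and Mcm4, with exact 95% intervals, for the Crtc2-/- and Crtc2+/+ libraries. Mcm4 is far above 0 in each panel, Xrcc6 and Nhej1 are above 0 in macrophages of both libraries, and Prkdc stays near 0.

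Within hepatocytes, keratin-high cells were set against keratin-low cells of the same library. All 4 eligible genes in the Crtc2-/- and 4 of 5 in the Crtc2+/+ library were past the fold, against 53.7% and 55.2% of features. Xrcc5 was higher in keratin-high cells, at 2.503 (1.11 to 6.99) in Crtc2-/- and 6.27 (1.67 to 52.8) in Crtc2+/+ cells, but on only 6 Crtc2-/- and 2 Crtc2+/+ UMIs in keratin-low cells. Dclre1c was lower, at 0.428 (0.256 to 0.742) in Crtc2-/- and 0.103 (0.0593 to 0.177) in Crtc2+/+ cells. The keratin-low gate carried the macrophage markers given above, and their part in the Dclre1c value was not tested. Without cells of other lineage gates, the log2 ratio of Dclre1c in Crtc2-/- cells was -1.87 on 5 keratin-low UMIs, against -1.23 with them. In Crtc2+/+ cells the lower level was lost. There, 0 keratin-low UMIs were left of 41, where a count of 0 allows up to 20.2 CPM by the limit of 3 counts, against 11 keratin-high UMIs at 6.58 CPM, and no direction can be read. Prkdc and Xrcc4 stood at log2 ratios of -1.62 and -1.04 between keratin-high and keratin-low Crtc2-/- cells. With cells of other lineage gates left out, these values were 0.012 and 0.092. In each library 1 of 2 eligible genes was then past the fold. The share of all features was not taken for those cells, so that count does not set these genes apart.

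Of 31 further genes of break signalling, end processing, receptor gene assembly and alternative end joining, 27 were eligible between genotypes in T cells, 28 in B cells and 27 in macrophages. In T cells 0 were at least 1.5-fold higher and 1 lower, where 11.3% and 4.32% of features were. In B cells 1 was higher and 2 lower, where 10.2% and 7.81% of features were, and in macrophages 1 and 1, where 17.2% and 12.4% were. The medians of the list were 0.00, -0.05 and 0.02 on the log2 scale in T, B and macrophage gates, near those of all features (0.04, 0.00 and 0.04). Parp1, the break sensor of alternative end joining, was lower in Crtc2-/- macrophages, with 42.7 and 77.2 CPM in Crtc2-/- and Crtc2+/+ cells and a ratio of 0.553 (0.514 to 0.595). It was also lower in the B gate, at 0.670 (0.602 to 0.745), and was 0.911 (0.795 to 1.04) in T cells. Polq, the polymerase of the same route, was 0.689 (0.555 to 0.850) in macrophages and 0.597 (0.417 to 0.860) in the B gate. As given above, the B gate shared cells with the macrophage gate. Ratios of the 31 genes were not taken with those cells left out, and their part in the B-gate values was not tested.

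Nbn, a subunit of the break-sensing MRN complex, was higher in Crtc2-/- cells of the macrophage and B gates, which share cells, at 1.65 (1.46 to 1.86) and 1.63 (1.204 to 2.24). It was lower in Crtc2-/- T cells, at 0.661 (0.515 to 0.848). Atm, the kinase that MRN activates, was also lower in Crtc2-/- T cells, at 0.704 (0.637 to 0.778). H2afx, the histone variant phosphorylated beside breaks, was 1.32 (1.204 to 1.45) in T cells and 0.658 (0.588 to 0.736) in B cells. The 5 cycling markers summed to 236 and 167 CPM in the Crtc2-/- and Crtc2+/+ T gates and 191 and 242 CPM in the B gates. The part of cycling cells in the H2afx ratios was not tested. Shld3, of the shieldin complex that limits end resection, was 1.46 (1.01 to 2.16) in T cells.

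Transcripts of receptor gene assembly were nearly absent, with 6 and 6 UMIs of Rag1 and 0 and 4 of Rag2 over all kept Crtc2-/- and Crtc2+/+ cells. Dntt, which adds bases to the ends during that assembly, was the exception, a gene named after its values were seen. It stood at 46.8 and 11.6 CPM in Crtc2-/- and Crtc2+/+ monocytes, a ratio of 4.05 (3.23 to 5.13), and at 56.3 and 23.6 CPM in cDC, a ratio of 2.38 (1.95 to 2.94). All 4 plasmacytoid dendritic cell markers were detected in these gates, at sums of 704 and 269 CPM in monocytes and 888 and 590.2 CPM in cDC, and their part in the Dntt level was not tested.

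Across the 9 gates of both libraries (18 points that share depth and cells), the 5 features whose level on the log2(CPM + 1) scale was most like Prkdc among 2807 compared were Cdc42se2, Cog5, Arhgdib, Ppp1r18 and Rngtt, with Pearson correlations of 0.95, 0.95, 0.95, 0.94 and 0.93. Of the other 9 end joining genes, Xrcc4 came closest at 0.77, then Dclre1c at 0.55 and Polm at 0.44. Xrcc5 and Lig4 stood at -0.17 and -0.54. The transcripts of the kinase and of the Ku80 subunit of the same holoenzyme thus did not share a pattern over these gates.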

How the data were processed

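Tumours from livers of Crtc2-/- and Crtc2+/+ mice were measured by 10x Genomics 3' single-cell RNA sequencing, with 1 library each. Each deposited matrix held unnormalized counts of UMIs for every pair of gene and barcode, and per the file headers it came from Cell Ranger 7.1.0. The submitters' processing notes name mm10 as the build and Seurat as a further tool, without its role. Neither source says whether intronic reads or strand entered the counts.

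Barcodes with at least 500 UMIs, 250 genes and at most 20% mitochondrial UMIs were kept. Scrublet, run in scanpy 1.11.5 with its expected rate set by the number of barcodes, called 273 Crtc2-/- doublets (2.98%, against 7.34% expected) and 263 Crtc2+/+ doublets (2.74%, against 7.69%), which were removed. Missed doublets remain.

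Gates were T (Cd3d, Cd3e and Cd3g, at least 2 UMIs in sum), B (Cd79a and Cd79b, 2), macrophage (C1qa, C1qb and C1qc, 20), monocyte (Ly6c2 and Ccr2, 1 each), cDC (Flt3, 1, with Cd209a or Clec9a), endothelial (Ptprb and Stab2, 3), hepatocyte (Alb, Apoa1 and Ttr, 20, split at 4 UMIs of Krt8 and Krt18) and cycling (Mki67 and Top2a, 2). A cell could meet several. UMIs were summed per gate, each sum divided by the gate's total to give CPM, and intervals were taken with scipy 1.17.1. Features needed 50 UMIs over both sides to be counted against 1.5-fold, so a gene seen on 1 side only could pass only by differing. The ratio and interval steps were tested on simulated Poisson counts of the T gate, with 2-fold changes in well-counted features only. Changes in features near 50 UMIs, other gates and spread beyond counting were not simulated. Other tools were Python 3.11.15, numpy 2.4.6, pandas 2.3.3 and matplotlib 3.10.9. Coordinates came from GENCODE M21 (GRCm38).

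Named were all 10 genes where they had 50 UMIs in a gate (others by counts), Crtc2, Mcm4, the 5 features most like Prkdc, and up to 4 of the 31 further genes in each of the T, B and macrophage gates with the largest log2 ratios. Some further genes are not reported by name here. The genes and lists were chosen with earlier results of these data known. Alternatives were other filters, gates, scalings and fold limits, thinning to 2000 UMIs and the leaving out of mixed cells.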

Additional observations from a re-analysis of the deposited data

Results flagged for a closer look

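Dclre1c, the Artemis nuclease gene, had ratios of Crtc2-/- over Crtc2+/+ on opposite sides of 1 in different gates, each with a counting interval that excluded 1. The ratio was 1.34 in T cells, 1.37 in monocytes, 1.27 in cDC and 1.92 in keratin-high hepatocytes. It was 0.697 in the B gate, 0.756 in macrophages, 0.464 in keratin-low hepatocytes and 0.708 in cycling cells. With cells of other lineage gates left out, the cDC and keratin-high intervals included 1 and the keratin-low gate held 5 and 0 UMIs in the Crtc2-/- and Crtc2+/+ libraries. The difference between the gates was not tested, since each genotype had 1 library.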

How the results depend on the processing

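The 8 of 71 eligible genotype ratios past 1.5-fold became 5 of 63 with gate thresholds doubled and 3 of 71 with 10 CPM added. They became 3 of 38 with cells thinned to 2000 UMIs, 16 of 83 at 20 UMIs and 1 of 41 at 200 UMIs. At a 2-fold limit they were 2 of 71. The number of eligible ratios thus changed with the setting, and the shares of all features were not taken at these settings. Prkdc in monocytes, at a log2 ratio of 0.21, was -0.079 with mixed cells left out and -0.018 as a mean of per-cell CPM. In endothelial cells it was 1.17 after thinning, against 0.36, and in macrophages 0.51 with and 0.26 without Kupffer transcripts, against 0.11. Turning round was counted only for ratios that were past 1.5-fold. Turned round were Xrcc5 in monocytes (0.91) and, between keratin-high and keratin-low Crtc2-/- cells, Prkdc (0.012) and Xrcc4 (0.092) with mixed cells left out, Dclre1c in keratin-low cells with thresholds doubled (0.10) and as a per-cell mean (0.035), Xrcc4 there with thresholds doubled (-0.71), and Poll in macrophages without Kupffer transcripts (0.027). Thinning also turned Nhej1 in cycling Crtc2-/- macrophages (-1.69) and Paxx between Crtc2+/+ keratin-high and keratin-low cells (-1.14). The leaving out of mixed cells removes 1 part of each gate by construction, and for the others the cause was not tested. Of the genotype ratios under all alternatives, 683 stayed within their interval, 59 moved beyond it, and 5 that were past 1.5-fold turned round. Changes of sign in smaller ratios, such as that of Prkdc in monocytes, are not among the 5. Depth limits Lig4 and Poll most, and the hepatocyte gates hold few cells. No paired analysis was possible because each genotype had 1 library.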
